A study of Mus musculus with 4 samples.

Results

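The genes described here encode 10 cardiac transcription factors, Gata4, Gata6, Mef2a, Mef2c, Mef2d, Nkx2-5, Tbx5, Tbx20, Hand2 and Srf, and their mRNA was measured in mouse hearts under pressure overload. They were read from 16 array probes whose RefSeq or Ensembl transcript belongs to 1 of these genes. The arrays held 55681 probes other than controls and 21761 genes with a transcript probe of this kind. Total RNA was taken from the hearts of male C57BL/6J mice after transverse aortic constriction (TAC), which narrows the aortic arch and loads the left ventricle, or after a sham operation. Hearts were collected after 2 weeks, when the muscle thickens under the load, or after 8 weeks, when it is taken to fail. By the labels the mice of both 2-week groups were 10 weeks old and those of both 8-week groups 16 weeks old, whereas the methods of the study give another age at surgery. Each of the 4 groups (sham 2 W, TAC 2 W, sham 8 W and TAC 8 W) was hybridized once, as 1 pool of RNA from several mice. The arrays hold no spread between mice, each ratio below compares 2 pools, and no p-value was computed.

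GATA4 and GATA6 are zinc finger proteins, NKX2-5 is a homeodomain protein, TBX5 and TBX20 are T-box proteins, HAND2 is a basic helix-loop-helix protein, and the MEF2 proteins and SRF share the MADS-box. They bind the promoters and enhancers of heart muscle genes, often several of them at the same element, and build the heart in the embryo. In the adult heart they keep sarcomere, ion channel and natriuretic peptide genes active, and GATA4, MEF2 and SRF in particular are known for passing on signals of load to the genes of hypertrophy, largely through changes of the proteins and their cofactors.

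A pair of promoters is shown, that of Srf, because SRF binds a motif named CArG box that lies in its own promoter, and that of Hand2, because GATA factors are known regulators of this gene. RefSeq's promoter table (GRCm38.p6) holds 7 of the 10 genes with 9 promoters, each from 250 bases before to 50 bases after the annotated start. Gata4, Gata6 and Tbx5 are missing from it. The Srf promoter lies on the minus strand at chr17:46556113-46556412 and holds 2 CArG boxes, which start 82 and 62 bases before the annotated start. The Hand2 promoter lies on the plus strand at chr8:57320733-57321032 and holds 2 GATA sites, 215 and 172 bases before the start and on opposite strands. Capitals mark these motifs, and both strands were searched.
Srf promoter: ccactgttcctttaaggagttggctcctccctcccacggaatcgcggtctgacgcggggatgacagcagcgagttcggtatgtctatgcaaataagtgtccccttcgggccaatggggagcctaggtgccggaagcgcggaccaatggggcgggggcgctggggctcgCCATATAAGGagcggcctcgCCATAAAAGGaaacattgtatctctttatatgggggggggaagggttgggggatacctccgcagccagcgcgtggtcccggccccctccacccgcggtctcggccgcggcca
Hand2 promoter: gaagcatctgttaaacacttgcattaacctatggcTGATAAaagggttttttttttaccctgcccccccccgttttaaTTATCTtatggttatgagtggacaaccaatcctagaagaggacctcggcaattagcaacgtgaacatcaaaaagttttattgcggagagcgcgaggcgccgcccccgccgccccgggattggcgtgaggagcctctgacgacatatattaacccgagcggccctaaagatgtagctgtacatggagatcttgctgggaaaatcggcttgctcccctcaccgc
A CArG box was found in 1.63% of all 32851 promoters of the table and in 1 of the 9 promoters of these genes, that of Srf. A GATA site was found in 29.8% of all promoters and in 1 of the 9, that of Hand2. The site that MEF2 proteins bind was found in 3.19% of all promoters and in 1 of the 9, that of Mef2a. The Tbx20 promoter held none of these 3 motifs. These are matches of letters and not sites of measured binding.

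Markers of heart muscle were present. All 7 cardiomyocyte markers were well above background on all 4 arrays, among them Myh6, the adult cardiac myosin heavy chain. The skeletal muscle regulators Myod1 and Myog were not well above background on any array, and nor was Actn3. The other skeletal muscle markers of the list, Tnni2 and Tnnt3, were well above background on all 4 arrays. No spot was saturated, and 54.7% to 58.5% of an array's probes were well above background. Signals are given as scaled signal, which is the background-subtracted signal of a probe divided by the 75th percentile of its array, and this percentile ran from 206 to 248. Probes differ in how well they bind, so a scaled signal is compared only with the same probe on another array. All 16 probes of the 10 genes were well above background on all 4 arrays, as were 14302 of the 21761 genes (65.7%), and these 14302 genes serve as the background.

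Most of the 10 transcription factor genes kept close to their sham level after TAC, as did most background genes. Tbx5 stood out with a lower level at both times. A gene was called when TAC and sham differed over 1.5-fold, which is 0.585 on the log2 scale. At 2 weeks 1 of the 10 genes, Tbx5, was lower by this rule, beside 2.41% of all genes, and 0 of 10 were higher, beside 4.1% of all genes. At 8 weeks Tbx5 was again the only gene called lower, beside 3.74% of all genes, and 0 of 10 were higher, beside 5.23%. Between the sham pools, 8 weeks over 2 weeks, 0 of 10 were called in either direction, beside 1.57% of all genes higher and 1.18% lower. The median log2 ratio of the 10 genes was -0.03 at 2 weeks and -0.09 at 8 weeks, close to that of all genes, which was -0.01 at both times. The median size of the log2 ratio was 0.18 and 0.14 for the 10 genes and 0.15 and 0.17 for all genes. Of the 10 genes 6 were within 0.32 of sham on the log2 scale at both times, as were 66.3% of all genes.

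**Figure D1:**
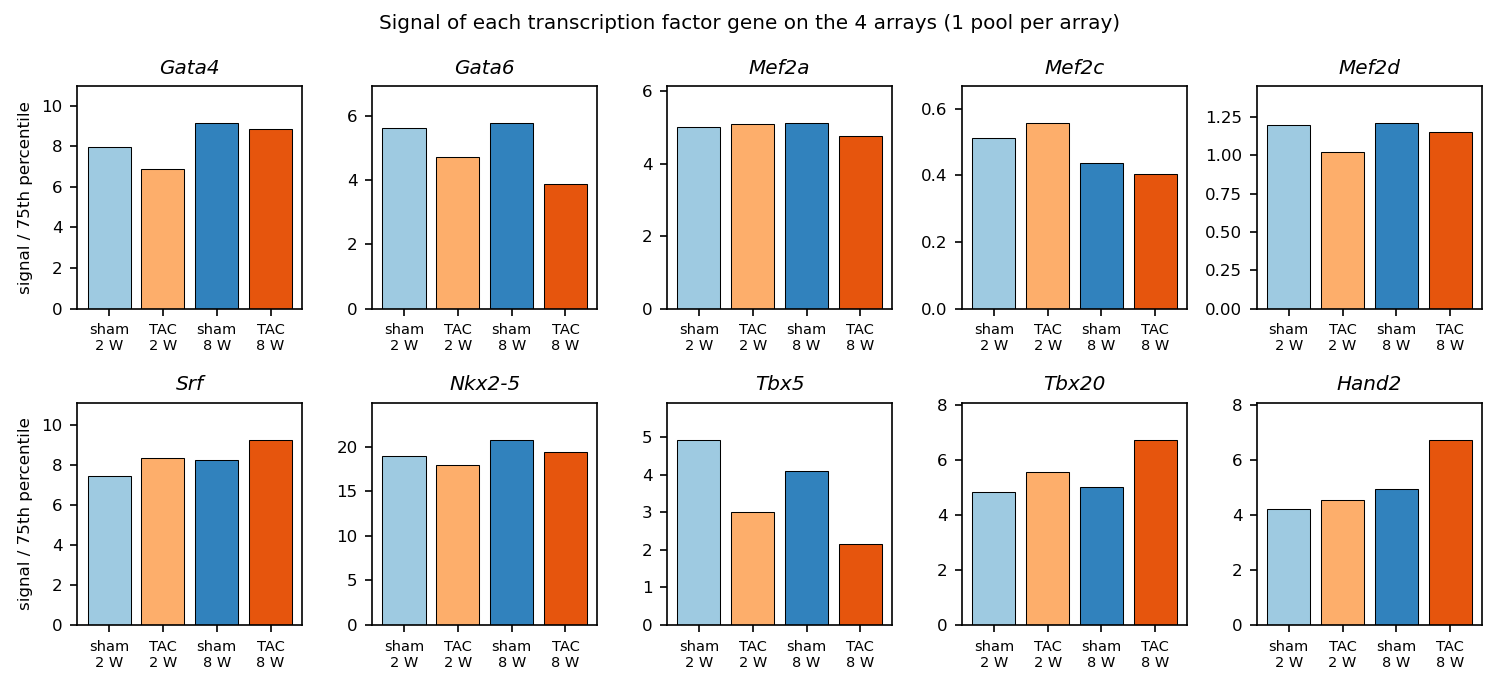
Scaled signal (signal over the 75th percentile of the array, linear axis from 0, each panel with its own scale) of the 10 genes on the sham and TAC arrays at 2 and 8 weeks (W), with 1 bar for 1 array of 1 pool and no error bar because no group had a second array. Tbx5 was lower on both TAC arrays than on both sham arrays, and Hand2 and Tbx20 were highest on the TAC array at 8 weeks.

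The noise of the measurement was read from probes printed several times on an array, because each of the 16 probes has 1 spot. Where a probe was spotted repeatedly, the log2 ratio between its spots had an SD of 0.114 if the signal was at least 0.25 of the 75th percentile and of 0.283 below that level. This noise holds no difference between mice or between hybridizations. The difference between the sham pools gives a further scale, although these pools also differ in age and share their arrays with the ratios they are set beside. For all genes the log2 ratio of the sham pools had an SD of 0.24, compared with 0.33 for TAC over sham at 2 weeks and 0.39 at 8 weeks.

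Tbx5 fell at both times. TBX5 activates atrial and conduction genes and works together with GATA4 and NKX2-5. Its probe (A_52_P523712, transcript NM_011537) had a scaled signal of 4.94 in sham and 3.02 in TAC hearts at 2 weeks, and of 4.1 in sham and 2.15 in TAC hearts at 8 weeks. Both TAC arrays were thus below both sham arrays. TAC was 1.64-fold lower than sham at 2 weeks (log2 ratio -0.71) and 1.9-fold lower at 8 weeks (log2 ratio -0.93). These ratios were larger in size than the difference between the sham pools, which was -0.27. In order, the TAC array at 8 weeks was lowest, then TAC at 2 weeks, sham at 8 weeks and sham at 2 weeks, and neighbors in this order differed by -0.49, -0.44 and -0.27 on the log2 scale, each over the SD of repeated spots. Of all genes, 1.38% were at least as low at 2 weeks and 1.07% at 8 weeks, while 1.14% were over 1.5-fold lower at both times. The call at 2 weeks was lost where the 8-week sham pool replaced the 2-week one (log2 ratio -0.44), against the mean of both sham pools (-0.58) and under normexp background correction (-0.58). The call at 8 weeks held in these 3 cases, with -1.20, -1.06 and -0.80.

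Atrial markers also differed between the arrays and are given beside Tbx5, which is known for its high level in the atria. Of 6 atrial markers, 3 were well above background on all 4 arrays. The median log2 ratio of these 3 was 0.15 at 2 weeks and -0.28 at 8 weeks, and 0 of them were called. The mean log2 scaled signal of all 6, of which those near background carry much of the difference, was -2.08 in sham and -1.80 in TAC hearts at 2 weeks, and -1.63 in sham and -2.58 in TAC hearts at 8 weeks. Myl7, the atrial regulatory myosin light chain, was well above background on 2 arrays, Sln on 3 and Bmp10 on 1. Myl4, the atrial essential light chain, had a log2 ratio of -0.01 at 2 weeks and one of -0.52 at 8 weeks. The part of atrial tissue in the result for Tbx5 was not tested at either time.

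Markers of fibroblasts moved with TAC as well. Of 6 fibroblast markers 3 rose over 1.5-fold at both times, beside 2.08% of all genes. They were Postn, Col1a1 and Col3a1, which encode matrix proteins of the healing and loaded heart. Their log2 ratios at 2 and 8 weeks were 2.29 and 2.92 for Postn, 0.97 and 1.20 for Col1a1, and 0.97 and 0.75 for Col3a1. The other 3 were not called, with 0.31 and 0.40 for Pdgfra, 0.18 and 0.28 for Dcn, and 0.07 and -0.55 for Tcf21, a transcription factor of resting fibroblasts. The mean log2 scaled signal of the list was 2.16 in sham and 2.96 in TAC hearts at 2 weeks and 2.21 and 3.04 at 8 weeks, that of the 7 cardiomyocyte markers 7.97 and 7.82 at 2 weeks and 7.95 and 7.72 at 8 weeks. In RNA from heart tissue, fewer cells of a type and less RNA per cell cannot be told apart, and the part of cell makeup in the ratios of the 10 genes was not tested.

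Tbx20, the other T-box gene, had a higher signal after TAC and was not called. TBX20 acts as an activator and a repressor and is needed for the contraction of the adult heart. Its brightest probe (A_52_P429876, NM_194263) had a scaled signal of 4.83 in sham and 5.57 in TAC hearts at 2 weeks, and of 5.01 in sham and 6.74 in TAC hearts at 8 weeks. Each TAC array was above both sham arrays, with TAC 1.15-fold over sham at 2 weeks (log2 ratio 0.21) and 1.35-fold at 8 weeks (0.43), while the sham pools differed by 0.05. Of all genes, 20.2% were at least as high at 2 weeks and 8.82% at 8 weeks. The other probes of the gene match another transcript, NM_020496. Probe A_55_P2162503 gave a log2 ratio of -0.02 at 2 weeks and one of 0.30 at 8 weeks. Probe A_55_P1976310, whose scaled signal of 0.136 to 0.245 lies where repeated spots vary most, had 0.37 and 0.29, and its sham pools differed by 0.56. All 3 probes were thus higher after TAC at 8 weeks, and they differed in sign at 2 weeks.

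**Figure D2:**
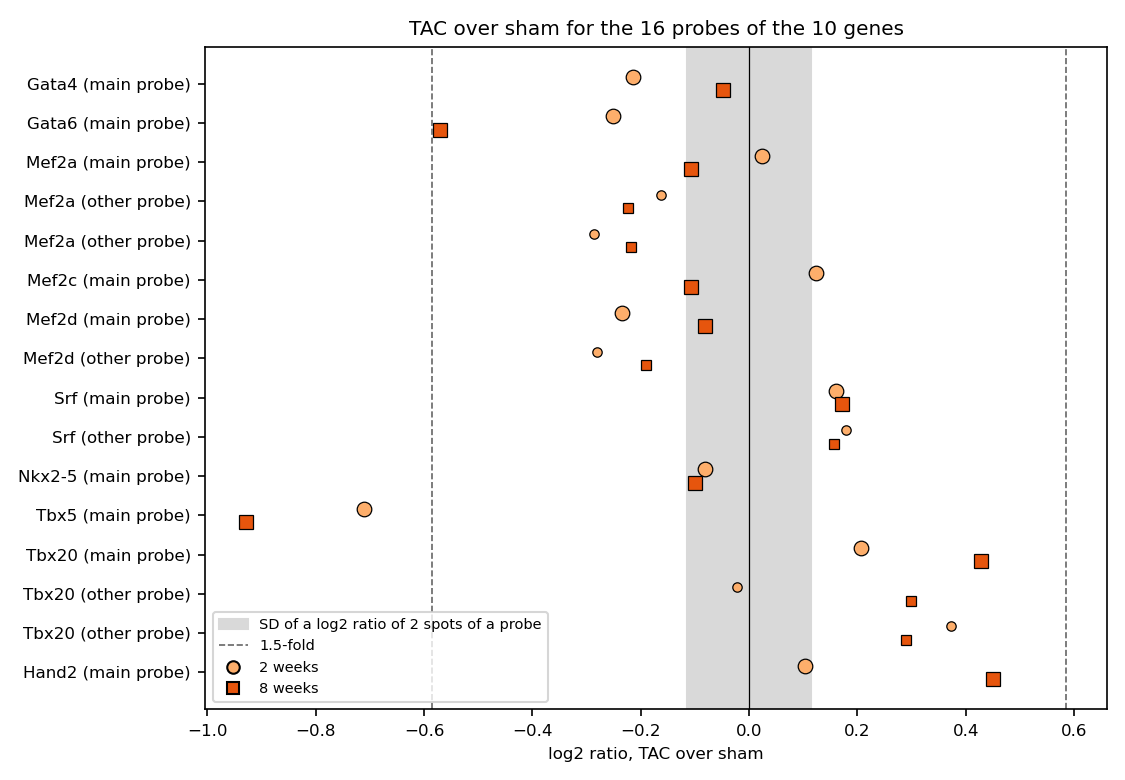
Log2 ratio of TAC over sham at 2 weeks (circles) and 8 weeks (squares) for the 16 probes of the 10 genes, large symbols for the brightest probe of a gene and small ones for its other probes. The grey band is 1 SD of the log2 ratio between repeated spots (0.114) and the dashed lines mark 1.5-fold, which Tbx5 alone passed.

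Hand2 was higher on the TAC array at 8 weeks than on the 3 other arrays. HAND2 drives growth of the right ventricle in the embryo and has been tied to the fetal gene program of the loaded heart. Its probe (A_55_P2016237, NM_010402) had a scaled signal of 4.24 in sham and 4.56 in TAC hearts at 2 weeks, and of 4.94 in sham and 6.75 in TAC hearts at 8 weeks. TAC was 1.37-fold above sham at 8 weeks (log2 ratio 0.45), which 8.17% of all genes reached, and was not called. At 2 weeks the log2 ratio was 0.10, within the SD of repeated spots and below the difference of 0.22 between the sham pools. The 3 arrays other than TAC at 8 weeks followed each other in steps of 0.10 and 0.12 on the log2 scale, from sham at 2 weeks through TAC at 2 weeks to sham at 8 weeks. The ratio at 8 weeks was larger than that at 2 weeks by 0.35, the largest such difference of either sign among the 10 genes, ahead of -0.32 for Gata6. Against the 2-week sham pool the 8-week ratio was 0.67 and past 1.5-fold. Hand2 is the gene whose promoter, printed above, holds 2 GATA sites, and 29.8% of all promoters hold a GATA site. The signals of the GATA genes follow, and a link between them and that of Hand2 was not tested.

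Gata6 was the second lowest of the 10 genes at 8 weeks. GATA6 shares targets with GATA4, and both are needed for the growth of heart muscle under load. Its probe (A_51_P411917, NM_010258) had a scaled signal of 5.62 in sham and 4.72 in TAC hearts at 2 weeks, and of 5.78 in sham and 3.89 in TAC hearts at 8 weeks. Both TAC arrays were below both sham arrays, and the sham arrays differed by 0.04 on the log2 scale. TAC was 1.19-fold lower at 2 weeks (log2 ratio -0.25) and 1.49-fold lower at 8 weeks (-0.57), just inside the threshold. Of all genes, 12.5% were at least as low at 2 weeks and 4.03% at 8 weeks. With the table that the authors deposited, which scales the arrays by other constants, the ratio at 8 weeks was -0.59 and past 1.5-fold, while normexp correction gave -0.38.

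Gata4 showed no such difference at 8 weeks. Its probe (A_55_P2028894, NM_008092) had a scaled signal of 7.99 in sham and 6.89 in TAC hearts at 2 weeks, and of 9.15 in sham and 8.85 in TAC hearts at 8 weeks. The log2 ratio was -0.21 at 2 weeks and -0.05 at 8 weeks, while the sham pools differed by 0.20. Both arrays of 8 weeks were above both arrays of 2 weeks, so that the time of the pool separated the arrays and surgery did not. The sign at 8 weeks was not stable, since it turned to 0.04 when arrays were scaled by their median, to 0.08 with normexp and to 0.12 without scaling between arrays.

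Nkx2-5 differed little between the arrays. NKX2-5 is among the earliest markers of heart muscle and binds together with GATA4 and TBX5. Its probe (A_51_P173285, NM_008700) had a scaled signal of 19 in sham and 18 in TAC hearts at 2 weeks, and of 20.8 in sham and 19.4 in TAC hearts at 8 weeks. The log2 ratio was -0.08 at 2 weeks and -0.10 at 8 weeks, both within the SD of repeated spots. Without scaling the ratio at 8 weeks was 0.07.

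Mef2a, Mef2c and Mef2d of the MEF2 family were all within 0.32 of sham on the log2 scale at both times. MEF2 proteins bind A/T-rich sites of muscle genes and are held in check by class II histone deacetylases. Mef2a, by its brightest probe (A_55_P1985159, NM_001033713), had scaled signals of 5.02 in sham and 5.1 in TAC hearts at 2 weeks, and of 5.12 in sham and 4.75 in TAC hearts at 8 weeks. These lie close together on all 4 arrays, with a log2 ratio of 0.02 at 2 weeks and one of -0.11 at 8 weeks. Its other probes gave -0.29 and -0.16 at 2 weeks and both -0.22 at 8 weeks, so that the 3 probes differed in sign at 2 weeks and were all below sham at 8 weeks. Mef2d was lower after TAC by both of its probes, with -0.24 and -0.28 at 2 weeks and -0.08 and -0.19 at 8 weeks. The brighter of them (A_55_P1966958, NM_133665) had scaled signals of 1.2 in sham and 1.02 in TAC hearts at 2 weeks, and of 1.21 and 1.15 at 8 weeks. Mef2c, by its only probe (A_55_P2155620, NM_025282), had scaled signals of 0.512 in sham and 0.557 in TAC hearts at 2 weeks and of 0.437 and 0.405 at 8 weeks. Both arrays of 8 weeks were below both arrays of 2 weeks for Mef2c, and the sham pools differed by -0.23, more than TAC and sham did at 2 weeks (0.12) or at 8 weeks (-0.11). Against the sham pool of the other time, the ratio of Mef2c was 0.35 at 2 weeks and -0.34 at 8 weeks. Without scaling between arrays the brightest probes of Mef2a, Mef2c and Mef2d were at 0.06, 0.06 and 0.09 at 8 weeks.

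Srf was slightly higher after TAC at both times and by both of its probes. SRF drives immediate early and cytoskeletal genes through CArG boxes such as those printed above, at which no binding was measured here. The brighter probe (A_51_P100289, NM_020493) had scaled signals of 7.46 in sham and 8.34 in TAC hearts at 2 weeks, and of 8.22 in sham and 9.26 in TAC hearts at 8 weeks. Its log2 ratios were 0.16 at 2 weeks and 0.17 at 8 weeks, which is 1.12-fold and 1.13-fold. The other probe (A_55_P2149540), also of NM_020493, gave 0.18 and 0.16. The probes differed by at most 0.02 within a time, although they do not add a second hybridization. The sham pools differed by 0.14 and 0.28 by these probes, beside 0.16 to 0.18 for TAC over sham, and 24.6% of all genes were at least as high as Srf at 2 weeks and at 8 weeks.

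Over both times, 5 of the 10 genes were below sham at 2 and at 8 weeks (Gata4, Gata6, Mef2d, Nkx2-5 and Tbx5), as were 36.6% of all genes, and 3 were above sham at both (Srf, Tbx20 and Hand2), as were 33.3%. Without scaling between arrays, which shifts the median of all genes at 8 weeks by 0.17, Gata4, Mef2d and Nkx2-5 were above sham at 8 weeks, so that only the lower signals of Gata6 and Tbx5 and the higher ones of Srf, Tbx20 and Hand2 had the same sign under each scaling. The ratio was past the SD of repeated spots at both times and of the same sign for Gata6, Tbx5, Srf and Tbx20, beside 36.1% of all genes. At a lower threshold of 0.32 on the log2 scale, Tbx20 and Hand2 were higher at 8 weeks, beside 13.2% of all genes, and Gata6 and Tbx5 lower, beside 12%. At 2 weeks 0 of the 10 genes were higher by that threshold, beside 12.5%, and Tbx5 was lower, beside 8.47%.

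**Figure D3:**
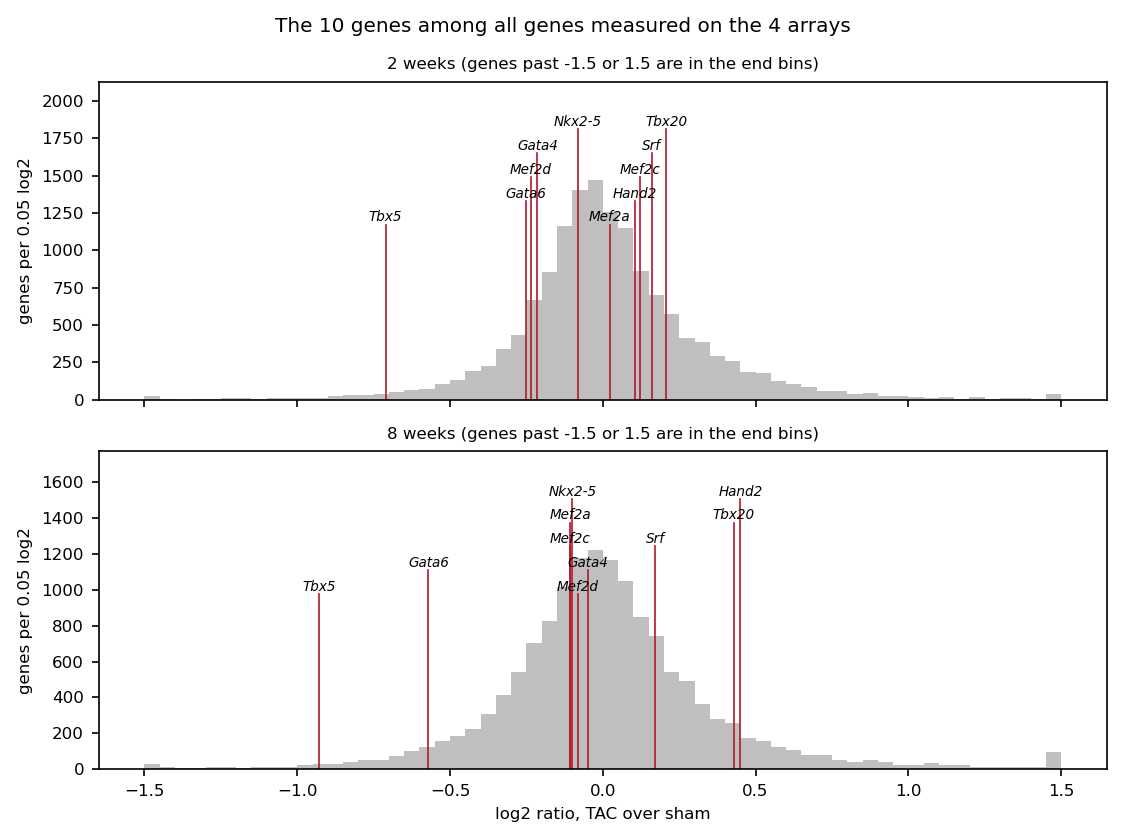
Number of genes (vertical axis) at each log2 ratio of TAC over sham (horizontal axis, bins of 0.05) for the 14302 background genes, at 2 weeks (top) and 8 weeks (bottom), with red lines at the 10 transcription factor genes. Tbx5 lies in the lower tail both times, Gata6 joins it at 8 weeks, and Hand2 and Tbx20 lie on the right flank at 8 weeks.

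For the 2 genes whose signals ranged most over the 4 arrays, the genes with the most similar pattern were sought by the Euclidean distance of centred log2 signals. Tbx5 ranged over 1.20 on the log2 scale and was nearest to Emilin2 (distance 0.094), Olfr1500 (0.117) and Synb (0.139) among 732 genes of at least a similar range. Hand2 ranged over 0.67 and had BC055324 (0.026) and Mvp (0.028) among its nearest of 4046 genes. With 4 arrays such distances are a description only.

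All 19 cofactors and repressors of these factors were well above background on all 4 arrays. Of them, 2 fell past 1.5-fold in the 2-week pair and 1 in the 8-week pair, and 0 rose at either time. Of all genes, 2.41% were lower and 4.1% higher at 2 weeks, and 3.74% and 5.23% at 8 weeks. The median log2 ratio of the list was -0.01 at both times, as for all genes. Hopx, a small homeodomain protein that restrains SRF, fell at both times, with scaled signals of 37.8 in sham and 24.7 in TAC hearts at 2 weeks and of 38.9 and 24.6 at 8 weeks, which is 1.53-fold and 1.58-fold lower. Klf15, a Krüppel-like factor that inhibits GATA4 and MEF2, was at 4.1 in sham and 2.67 in TAC hearts at 2 weeks and at 4.09 and 2.86 at 8 weeks. It fell 1.54-fold at 2 weeks and was 1.43-fold below sham at 8 weeks, which did not pass. The sham pools differed by 0.04 for Hopx and by -0.01 for Klf15 on the log2 scale. Zfpm2, the GATA cofactor FOG2, had a log2 ratio of -0.44 at 2 weeks and one of -0.34 at 8 weeks. Myocd, the heart and smooth muscle coactivator of SRF, had -0.07 and -0.18. Under normexp neither Hopx nor Klf15 was called, and the call of Hopx was also lost at 8 weeks with median scaling or no scaling, and at 2 weeks with quantile normalization or the mean over probes. The highest ratios belonged to Mrtfa, an actin-regulated coactivator of SRF, with 0.42 and 0.31.

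Of 19 other heart transcription factors 13 were well above background on all 4 arrays, while others of the list, among them Mef2b, Hand1, Isl1, Hey2 and Tead4, were not. None of the 13 passed 1.5-fold in either direction at either time. Of all genes, 4.1% were higher and 2.41% lower at 2 weeks, and 5.23% and 3.74% at 8 weeks. The median log2 ratio of the 13 was -0.09 at 2 weeks and -0.12 at 8 weeks, the latter 0.045 without scaling. At 2 weeks Tbx18 passed with the deposited table (1 of 13 higher) and Prox1 with median scaling (1 of 13 lower). Low ratios at both times were those of Prox1 (-0.56 and -0.47) and Meis1 (-0.43 and -0.41), while Tbx3, named after its values were seen, was at 0.22 at 2 weeks and lowest of the list at 8 weeks (-0.48). Tbx18, a T-box gene of the epicardium and sinus node, was highest with 0.56 and 0.36, at scaled signals of 0.131 to 0.196, where repeated spots vary most.

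Known targets were divided by the factor that binds them. Of 14 SRF targets 4 rose over 1.5-fold at each time and 0 fell, with a median log2 ratio of 0.30 at 2 weeks and 0.28 at 8 weeks, beside the 4.1% and 5.23% of all genes that were higher. Without scaling 5 were higher at 8 weeks, with Cnn1 added, and under normexp Fhl1 was not called at 2 weeks. Acta1, the skeletal alpha-actin that returns in hypertrophy, had scaled signals of 58.4 in sham and 498 in TAC hearts at 2 weeks and of 67.9 and 723 at 8 weeks, a rise of 8.53-fold and 10.6-fold. Ankrd1, a stretch-responsive sarcomere protein, was at 99.1 in sham and 241 in TAC hearts at 2 weeks and at 105 and 415 at 8 weeks. Fhl1, a LIM protein of the sarcomere, rose 1.57-fold and 2.33-fold. The 4 calls were completed by Cnn1 at 2 weeks (log2 ratio 0.89) and Fos at 8 weeks (1.28), which are named after their values were seen. Acta2 and Tpm1 had ratios below 0 at both times, with -0.01 and -0.07 at 2 weeks and -0.41 and -0.18 at 8 weeks.

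Of 10 MEF2 targets 1 rose over 1.5-fold at 2 weeks and 4 at 8 weeks, beside 4.1% and 5.23% of all genes. Lower past 1.5-fold were 0 at either time, beside 2.41% and 3.74% of all genes. The median log2 ratio of the list was 0.03 at 2 weeks and 0.22 at 8 weeks. Xirp2, an actin-binding protein of the intercalated disc, was at 4.81 in sham and 13 in TAC hearts at 2 weeks and at 5.34 and 19.7 at 8 weeks, a rise of 2.7-fold and 3.69-fold. At 8 weeks Nr4a1 (0.89), Hspb7 (0.66) and, named after its value was seen, Xirp1 (0.75) passed as well. The lowest ratios were those of Hrc, a calcium-binding protein of the sarcoplasmic reticulum, with -0.44 and -0.35, and of the glucose transporter Slc2a4, with -0.30 and -0.33.

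Of 12 targets of GATA4, NKX2-5 and TBX5, 2 rose over 1.5-fold at each time, Nppa and Nppb, which encode the natriuretic peptides. Of all genes, 4.1% were higher by this rule at 2 weeks and 5.23% at 8 weeks. Nppa was at 189 in sham and 677 in TAC hearts at 2 weeks and at 147 and 922 at 8 weeks, a rise of 3.58-fold and 6.28-fold. Nppb rose 2.05-fold and 3.84-fold. Ryr2, the calcium release channel, was 1.55-fold lower at 8 weeks and is named after its value was seen. It was the only one of the 12 past 1.5-fold lower, beside 3.74% of all genes, and others were below sham by less. Myh6 had a log2 ratio of -0.19 at both times, Tnni3 had -0.31 and -0.46, and Atp2a2, the calcium pump of the sarcoplasmic reticulum, had -0.45 and -0.37. The median of the list was -0.08 at 2 weeks and -0.16 at 8 weeks. At 8 weeks the Ryr2 call was lost with median scaling, without scaling and with normexp, and the median turned to 0.012 without scaling. The natriuretic peptide genes rose on the same arrays on which Gata4 and Nkx2-5 were not called and Tbx5 was lower. Only mRNA was measured, and a link between these levels was not tested.

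**Figure D4:**
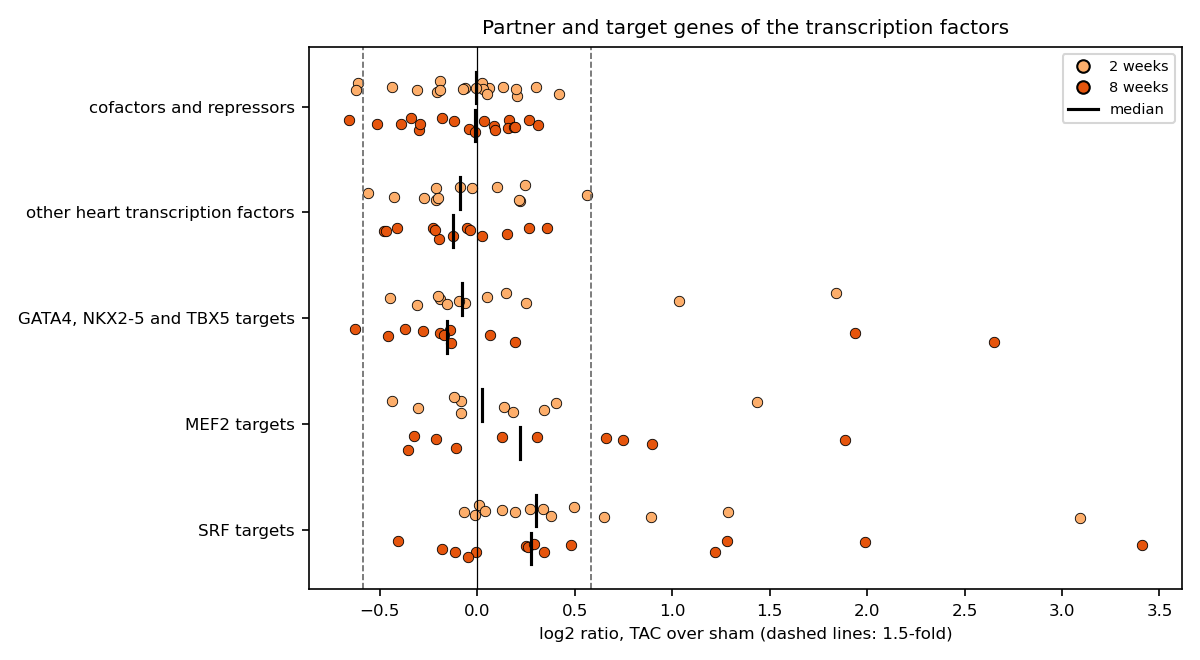
Log2 ratio of TAC over sham (horizontal axis) of each gene of 5 lists of partners, other heart transcription factors and targets at 2 weeks (light) and 8 weeks (dark), with 1 point for 1 gene well above background on all 4 arrays, black bars at the medians and dashed lines at 1.5-fold. The points furthest to the right at 8 weeks are Acta1, Nppa, Ankrd1, Nppb and Xirp2.

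The plot of each gene's ratio under all processing settings shows how far the direction of a gene depended on them. For Tbx5 the log2 ratio ran from -0.75 to -0.44 at 2 weeks and from -1.20 to -0.76 at 8 weeks. For Gata6 it ran from -0.29 to -0.20 and from -0.59 to -0.38. Tbx20 stayed between 0.15 and 0.24 at 2 weeks and between 0.34 and 0.60 at 8 weeks. Hand2 ran from -0.12 to 0.13 at 2 weeks, with a change of sign, and from 0.42 to 0.67 at 8 weeks. Srf ran from 0.02 to 0.19 and from 0.13 to 0.34. Apart from the mean over probes, these settings used the brightest probe of a gene. By the other Srf probe, the scaled signal of TAC at 2 weeks (5.97) was below that of sham at 8 weeks (6.39).

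**Figure D5:**
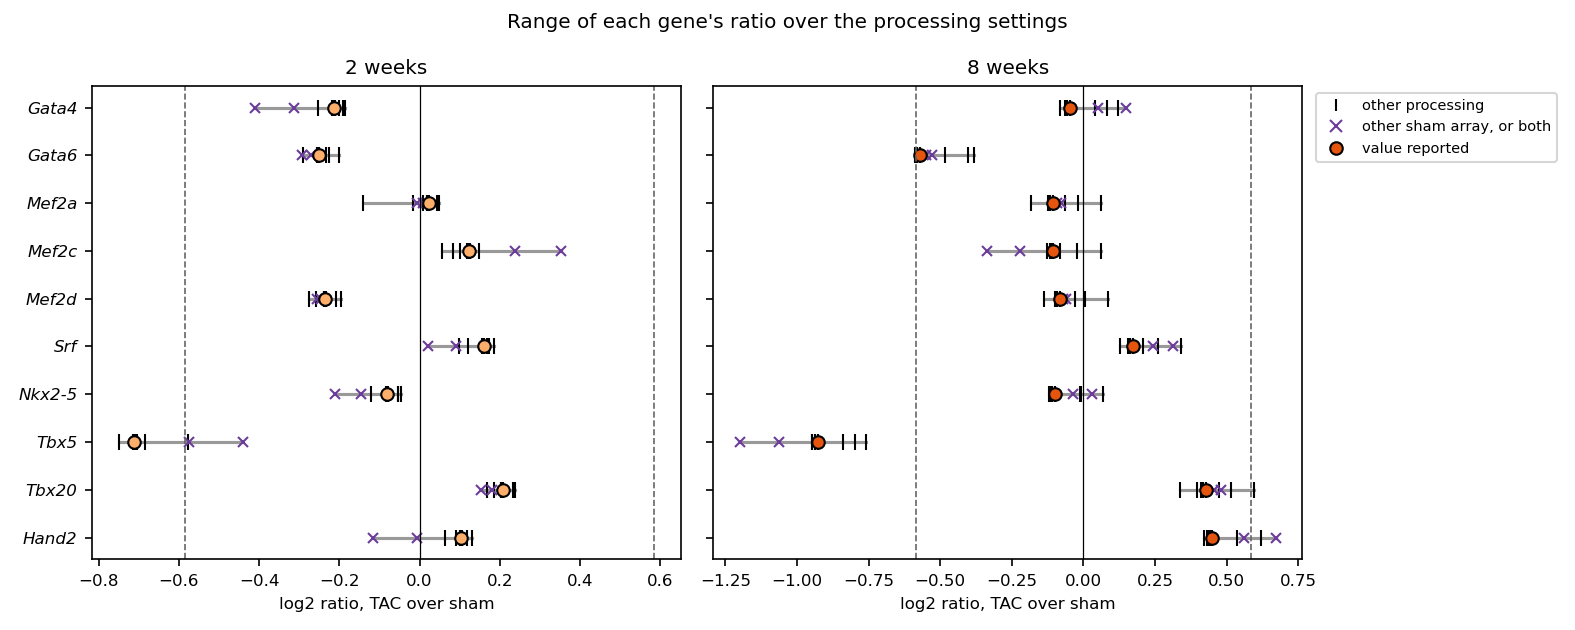
Log2 ratio of TAC over sham (horizontal axis) of the 10 genes at 2 weeks (left) and 8 weeks (right) as reported (circles), under other scalings, background correction, probe choice, outlier handling and the deposited table (ticks), and against the sham array of the other time or the mean of both sham arrays (crosses), with dashed lines at 1.5-fold. The values of Tbx5 and Gata6 stay below 0 and those of Tbx20 and Srf above 0 under all settings drawn. Those of Hand2 stay above 0 at 8 weeks. Apart from the mean over probes, each setting used the brightest probe of a gene.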

How the data were processed

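Total RNA from sham and TAC hearts was labelled with Cy3 and hybridized to 4 one-color Agilent SurePrint G3 Mouse GE arrays, 1 for each group, all on 1 slide, so that the slide could not be tested as a batch. Each deposited scanner file holds an intensity per spot, the processed signal, which the authors obtained with Agilent Feature Extraction 10.7.3.1 (file header; the submitters' notes list 9.1) by subtracting background and a spatial trend, the arrays not being normalized to each other. Probe annotation is on mm9 per the file headers. A table that was also deposited gives this intensity multiplied by a constant for each array (4.26 for sham 2 W, 4.35 for TAC 2 W, 4 for sham 8 W and 3.52 for TAC 8 W, with column medians of 101, 106, 104 and 97.2), on a linear scale, and how the constants were chosen is not given in the sources used here. The methods of the study name GeneSpring for the analysis.

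From the scanner files, log2 of the processed signal minus log2 of the array's 75th percentile over 55681 probes was computed, with outlier spots (141 to 167 of 59305 on an array) left out and spots of a probe averaged. Transcript accessions without versions were matched to RefSeq and GENCODE gene tables, and 29501 of 32342 transcript probes matched a gene. A gene was represented by its probe with the highest mean signal. With 1 array for each group there was no test. Differences were described by a 1.5-fold threshold beside all genes well above background on 4 arrays. The number of arrays limits the precision, and no interval could be given.

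The 10 genes, the lists of cofactors, other transcription factors, targets and cell type markers, the settings and the rule for named genes were chosen with earlier results of these data known. The rule names every one of the 10 genes and its probes, the at most 3 genes of a list with the largest rise and the largest fall by the smaller of both times' changes, Nppa, Nppb, Myh6, Acta1 and Myocd, and the 3 genes nearest in pattern to the 2 genes of widest range. Not every gene that the rule selects is given in the text. Alternatives were quantile, median or no scaling, the percentile over spots, normexp background correction with an offset of 50 (limma 3.58.1, R 4.3.3), the deposited table, the mean over probes, outlier spots kept, thresholds of 0.32 on the log2 scale and of 2-fold and other filters on dim probes. The sham array of the other time and the mean of both sham arrays were added after the data were seen. Computations used Python 3.11.15 with pandas 2.3.3 and numpy 2.4.6.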

Additional observations from a re-analysis of the deposited data

How the results depend on the processing

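No paired analysis was possible because each group has 1 array. The number of the 10 genes called lower at 2 weeks (1, Tbx5) was 0 at 2-fold, 0 under normexp (log2 ratio -0.58), 0 against the other sham array (-0.44) and 0 against the mean of both sham arrays (-0.58). The number called lower at 8 weeks (1) was 2 at the lower threshold of 0.32 on the log2 scale, 0 at 2-fold and 2 with the deposited table, through Gata6 (-0.59). The number called higher at 8 weeks (0) was 2 at that threshold, 2 without scaling, through Hand2 (0.62) and Tbx20 (0.60), and 1 against the other sham array, through Hand2 (0.67). The median log2 ratio of the 10 genes at 2 weeks was -0.16 against the other sham array, and at 8 weeks it was 0.077 without scaling, a setting that moves the median of all genes to 0.16. The causes were not tested. The number called higher at 2 weeks was 0 under all settings. The other settings kept each of these counts, and the 2 other filters on dim probes left all counts of the 10 genes as they were. Across all genes those filters moved the counts over 1.5 times in places. At 2 weeks, 586 genes were higher and 345 lower over 1.5-fold with the filter used, 1045 and 512 with 1 array of the pair above background and 1832 and 1097 with no filter. At 8 weeks these counts were 748 and 535, 1118 and 871, and 1612 and 1909. At 2-fold they were 127 and 67 at 2 weeks and 249 and 119 at 8 weeks. Of the 20 single ratios, 0 moved by more than the noise of repeated spots under quantile or median scaling, the deposited table, the percentile over spots or with outlier spots kept, 1 moved with the mean over probes, 4 with normexp, 4 with the mean of both sham arrays, 10 without scaling and 12 against the other sham array. Median scaling, the percentile over spots, the deposited table and no scaling shift the ratios of all genes at a time by the same amount. At 2 weeks it was -0.04, -0.004, 0.026 and -0.003, and at 8 weeks 0.087, -0.011, -0.018 and 0.168. Only the last of these is larger in size than the 0.114 of repeated spots. The counts of moved ratios under these settings were fixed by that and say nothing of single genes. A scaled signal under 0.25 limits what can be said of the dimmest Tbx20 probe.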

Other observations

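The lists of other cell types that a heart sample can hold differed in how they stood after TAC. All 6 macrophage markers were above sham at both times, with a median log2 ratio of 0.44 at 2 weeks and 0.36 at 8 weeks. At 2 weeks 1 of them rose over 1.5-fold, Cd163 (0.66), beside 4.1% of all genes. Cd163, named after its value was seen, was not called under normexp. Its scaled signals of 0.0737 to 0.117 lie where repeated spots vary most. Mrc1, the mannose receptor, had 0.53 at both times, and it passed 1.5-fold at 8 weeks with median scaling or without scaling. The 6 endothelial markers had a median of 0.21 at 2 weeks and -0.01 at 8 weeks, and none of them was called. Of 5 smooth muscle markers 1 rose over 1.5-fold at 2 weeks, Cnn1 (0.89), beside 4.1% of all genes. Smtn had the lowest ratios, with -0.32 and -0.58. The latter was past 1.5-fold with the deposited table, the percentile over spots and quantile normalization. The 5 lymphocyte markers, of which 3 were well above background on all 4 arrays, had a median of 0.05 at 2 weeks and -0.16 at 8 weeks.

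Wt1, a marker of the epicardium, had log2 ratios of 0.40 and 0.41, and its sham pools differed by 0.57, more than TAC and sham did. Msln, another marker of that list, rose at 2 weeks (1.12), a call lost under normexp, and had -0.56 at 8 weeks. Its scaled signals were 0.103 to 0.348, and those under 0.25 lie where repeated spots vary most. Upk3b was not well above background on any array. Among skeletal muscle markers Tnni2 and Tnnt3 were well above background on all 4 arrays, with -0.20 and 0.54 at 2 weeks and -0.54 and 0.35 at 8 weeks. The scaled signals of Tnnt3, 0.0863 to 0.15, lie where repeated spots vary most. Of the fat markers Cidea alone was well above background, with -0.04 and 0.42, and Ucp1, Adipoq and Lep were not well above background on any array. Msln, Upk3b, Ucp1, Adipoq and Lep were named after their values were seen.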
